A study of Mus musculus with 6 samples.

Results

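The genes of 4 simple keratins and 6 genes of epithelial cell-cell junctions, which together mark the luminal cells of the mammary gland, were followed in whole glands of 3 Rac1-/- and 3 WT mice at involution day 2. The 10 genes (Krt7, Krt8, Krt18, Krt19, Cdh1, Epcam, Cldn3, Cldn4, Cldn7 and Ocln) were chosen by name, and every probe set of the array whose annotation gives exactly 1 of these symbols was taken, which made 17 of 45101 probe sets and 10 of 18194 genes. Rac1-/- mice were Rac1fx/fxYFP;WAPiCreTg/•, in which Cre under the whey acidic protein promoter removes the floxed Rac1 gene from luminal epithelial cells from mid-pregnancy on. WT mice were Rac1fx/fxYFP without the Cre gene, so both groups carried the floxed alleles and the Rosa YFP reporter, and no mice with Cre and intact Rac1 were among these arrays. The mice were age matched dams, pups were taken away after a period of nursing to start involution, and RNA of inguinal gland 4 of each mouse was hybridized to 1 Affymetrix mouse array. The gland also holds myoepithelial, stromal, fat and immune cells, in which Rac1 is intact.

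Keratins form the intermediate filaments of epithelial cells, always as a type II partner (Krt7 and Krt8 here) with a type I partner (Krt18 and Krt19), and these simple keratins are the ones that luminal mammary cells use, while myoepithelial cells use Krt5 and Krt14. E-cadherin (Cdh1) holds neighbouring cells together in adherens junctions through its catenins, and claudins and occludin build the tight junctions above them, which seal the alveolar lumen against the tissue while milk is made. In involution the alveolar cells stop secretion, many are shed or die, and the surviving epithelium reorganizes.

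The deposited values were 1 linear intensity per probe set, scaled array by array. Their interquartile range on the log2 scale was 1.98, 1.23 and 1.48 in the Rac1-/- mice Nas496, Nas497 and Nas518 and 2.85, 2.42 and 1.42 in the WT mice Nas478, Nas483 and Nas484, so 2 of the 3 WT arrays spread more widely than any Rac1-/- array. On the first principal component Nas497 (174) and Nas484 (101), 1 mouse of each group, lay at the high end. The WT mice Nas478 (-113) and Nas483 (-115) lay at the low end, with Nas496 (-50.7) and Nas518 (4.13) between. Actin's control probe sets had a lower 3' minus 5' value (log2) in every Rac1-/- mouse (-1.24 to -0.30) than in every WT mouse (-0.17 to 0.048). Those of Gapdh overlapped (-0.058 to 0.18 in Rac1-/- and -0.037 to 0.16 in WT mice). Because the actin values did not overlap, the estimates adjusted for actin below cannot separate that difference from genotype. For the values below, arrays were quantile normalized with a floor of 1, log2 intensities are given, and each gene is represented by its brightest probe set. Rac1 itself had 9.51, 9.01 and 9.84 in Rac1-/- glands and 9.31, 9.50 and 8.97 in WT glands on its brightest probe set, and 8.77, 8.34 and 8.14 in Rac1-/- glands and 8.74, 9.0 and 9.89 in WT glands on the next, both with overlapping groups. Where the probes lie relative to the deleted part was not examined, so they do not check the labels. Of 18194 genes limma called none (0 up and 0 down, 0%) after adjustment at 0.05, while 405 with a higher and 332 with a lower mean reached that level unadjusted.

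Of the 10 luminal keratin and junction genes, the mean was higher in Rac1-/- glands for 8 and lower for 2, where 46.1% of all genes lay below 0. Their median log2 change, Rac1-/- minus WT, was 0.57, which 78.2% of all genes did not exceed, against a median of 0.060 over all genes. None passed limma's test (adjusted p from 0.946 to 0.999), and 2, Krt7 and Cldn4, had an unadjusted p under 0.05, both higher (2.23% of all genes were higher and 1.82% lower at this level). In 4 of the 10, Krt7, Krt18, Cldn3 and Cldn4, each Rac1-/- mouse lay above each WT mouse, which held for 5.41% of all genes, and in 0 all lay below, which held for 4.20%. These directions depend on the scaling between arrays. Scaling to a common median instead gave the 10 genes a median of -0.17 and all genes one of -0.12, a shift from the 0.060 above, so that 3 of the 10 lay above 0 and the groups stood apart for Krt7 alone. Krt7 and Cldn4 stayed above 0 under all 18 alternative settings that gave them a value. Those that changed only the probe sets, the filter, the floor or the variance model returned their main estimates, so they did not test the direction. In whole glands, a different number of luminal cells and a different level of an RNA in each cell cannot be told apart.

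**Figure D1:**
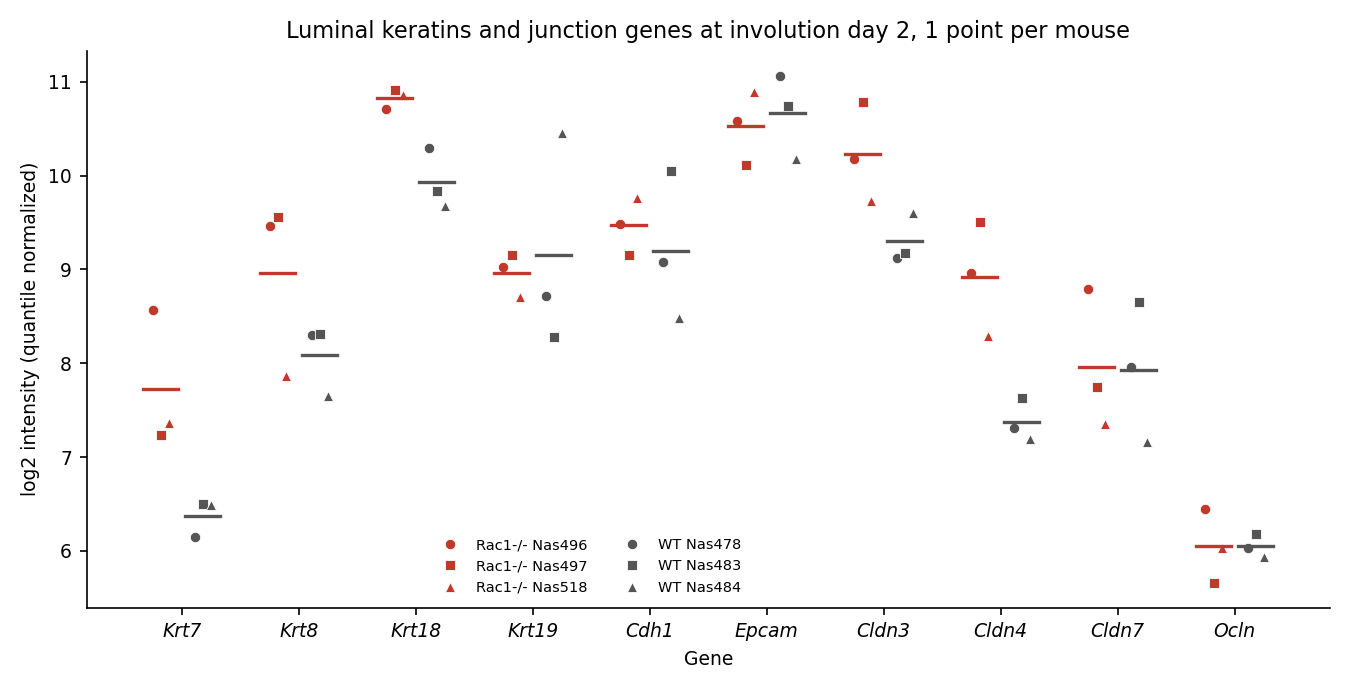
Quantile-normalized log2 intensity (y axis) of the 10 genes (x axis) at involution day 2, with 1 point per mouse and a bar at each group's mean, Rac1-/- in red left of WT in grey (n = 3 mice each). The groups do not overlap for Krt7, Krt18, Cldn3 and Cldn4, though with arrays scaled to a common median this held for Krt7 alone and Krt18 and Cldn3 had a lower mean in Rac1-/- glands.

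Among the keratins, Krt7, a type II keratin of simple and ductal epithelia, had log2 intensities of 8.57, 7.24 and 7.37 in Rac1-/- glands and 6.15, 6.50 and 6.49 in WT glands. Every Rac1-/- mouse was above every WT mouse, with Nas496 far above the other Rac1-/- mice. The log2 change was 1.35 (SE 0.51, 95% confidence interval 0.19 to 2.50, limma adjusted p = 0.946, unadjusted 0.0271), or 2.55-fold. The intensities as deposited, without further normalization, were 409, 148 and 160 in Rac1-/- and 49.9, 76.1 and 95.7 in WT glands and stood apart in the same way. The log2 change was 0.90 without Nas496, 1.74 without Nas497 and 1.11 with arrays scaled to a common median.

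Krt18, the type I keratin that pairs with Krt8, had 10.71, 10.91 and 10.86 in Rac1-/- glands and 10.29, 9.84 and 9.67 in WT glands. The Rac1-/- values lay close together (SD 0.10, against 0.32 in WT) and above all WT values. The log2 change was 0.90 (SE 0.43, interval -0.079 to 1.87, limma adjusted p = 0.946), between 0.77 and 1.06 when any 1 mouse was left out, but -0.23 with arrays scaled to a common median. The deposited intensities, 2064, 925 and 1278 in Rac1-/- and 1755, 1195 and 700.4 in WT glands, overlapped.

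Krt8 had 9.46, 9.56 and 7.86 in Rac1-/- glands and 8.30, 8.31 and 7.65 in WT glands on its brightest probe set. Nas518, unlike the other Rac1-/- mice, lay among the WT values. This made a log2 change of 0.87 (SE 0.57, interval -0.44 to 2.18), 1.45 without Nas518, where the groups stood apart, and -0.071 with arrays scaled to a common median. The other probe sets of Krt8 gave 0.55 (SE 0.98) and 0.55 (SE 0.82). On both, Nas496 was the highest of the 6 mice (10.49 where the next Rac1-/- mouse had 8.10, and 9.89 where the next had 7.83) and the WT mouse Nas484 the lowest (6.45 and 6.58). The larger value of Nas497 on the brightest probe set was therefore not seen on the others. The brightest and the first of the other probe sets are both of a kind that can cross-hybridize with related sequences, and the third, which is not, is the one that gave 0.55 with the SE of 0.82.

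Krt19, a small type I keratin of luminal and progenitor cells, had 9.03, 9.15 and 8.70 in Rac1-/- glands and 8.72, 8.28 and 10.46 in WT glands. The WT mouse Nas484 was far above all others, and the remaining 5 mice lay between 8.28 and 9.15. Over all mice the log2 change was -0.19 (SE 0.62, interval -1.6 to 1.22) and turned to 0.46 without Nas484. It was -1.13 with arrays scaled to a common median, and 0.15 with weights on the arrays. Krt8 and Krt18 are next to each other on chromosome 15 with 23873 bases and 0 protein-coding genes between them, and Krt7 lies 23 protein-coding genes away from Krt8 on that chromosome (GRCm38.p6), while Krt19 is on chromosome 11 among the type I keratins.

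Of 8 basal and stratified keratin genes, means were higher in Rac1-/- glands for 5 and lower for 3, with a median log2 change of 0.23. None of these 8 passed the test and none had groups that stood apart. Krt14, the type I keratin of myoepithelial cells, had a log2 change of 1.25 (SE 0.72), and its type II partner Krt5 had -0.18 (SE 0.87). Krt16, a keratin of stressed and stratified epithelia, had 2.14 (SE 1.08) from dim and scattered values, 5.88, 8.03 and 5.63 in Rac1-/- glands and 3.90, 2.51 and 6.71 in WT glands. Of 10 myoepithelial markers, which include Krt5, Krt14 and Krt17, 6 had a higher mean (median 0.18, or -0.42 with a common median), and the log2 of their summed level ran from 11.5 to 12.2 in Rac1-/- glands and from 11.1 to 11.5 in WT glands. The smooth muscle actin gene Acta2 stood apart among them, with a log2 change of 1.24 (SE 0.56), or 0.23 with a common median. The part of myoepithelial cells in the keratin values was not tested.

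E-cadherin (Cdh1) had 9.49, 9.16 and 9.76 in Rac1-/- glands and 9.08, 10.04 and 8.48 in WT glands. The WT mice held both the highest and the lowest value and enclosed all Rac1-/- mice. Between the means the log2 change was 0.27 (SE 0.53, interval -0.93 to 1.47, limma adjusted p = 0.971). It was 0.68 without Nas483, where the groups stood apart, -0.094 without Nas484, -0.75 with arrays scaled to a common median and -0.28 without normalization between arrays.

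Epcam, a homophilic adhesion molecule of epithelia that binds claudin-7, had 10.58, 10.11 and 10.89 in Rac1-/- glands and 11.06, 10.75 and 10.18 in WT glands. The groups overlapped almost fully. Epcam's log2 change was -0.14 (SE 0.47, interval -1.21 to 0.93, limma adjusted p = 0.988), 0.060 without Nas478, 0.070 without Nas497 and -1.29 with arrays scaled to a common median. It turned to 0.25 and 0.42 with the interquartile range or the actin difference of each array as a covariate. A dimmer probe set of Epcam, of the kind that can cross-hybridize with related sequences, gave -1.68 (SE 1.16) with overlapping groups. Its values were 6.46, 2.69 and 6.05 in Rac1-/- and 7.23, 8.13 and 4.89 in WT glands.

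Of 12 partners of E-cadherin in adherens junctions, the mean was higher in Rac1-/- glands for 8 and lower for 4 (median log2 change 0.067, or -0.34 with a common median). None passed the test over all genes and 2 had an unadjusted p under 0.05, both lower. Ctnnd1, p120-catenin, which binds E-cadherin at the membrane and keeps it there, had 7.55, 7.63 and 8.0 in Rac1-/- glands and 8.64, 9.08 and 10.09 in WT glands. Jup, or plakoglobin, a catenin of both adherens junctions and desmosomes, had 6.64, 5.60 and 5.53 in Rac1-/- glands and 6.85, 7.32 and 7.52 in WT glands. In both genes every Rac1-/- mouse was below every WT mouse, as in 4.20% of all genes, and both were chosen for naming by their p. The log2 changes were -1.54 (SE 0.51) for Ctnnd1 and -1.31 (SE 0.49) for Jup, each with a limma adjusted p of 0.946, and both stayed below 0 under every scaling and without any 1 mouse. The core catenins Ctnna1 and Ctnnb1 had 0.047 (SE 0.83) and 0.086 (SE 0.81), with Nas497 and Nas484 lowest in each group for both genes.

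Of the 4 junction genes that code for tight junction proteins, Cldn4 and Cldn3 had the larger differences and Cldn7 and Ocln had means that nearly met after quantile normalization. Cldn4, a claudin that tightens paracellular sealing and, like Cldn3, binds the enterotoxin of Clostridium perfringens, had 8.96, 9.50 and 8.29 in Rac1-/- glands and 7.31, 7.63 and 7.20 in WT glands. The lowest Rac1-/- mouse was above the highest WT mouse. Cldn4 thus had a log2 change of 1.54 (SE 0.48, interval 0.45 to 2.64, limma adjusted p = 0.946, unadjusted 0.0114), or 2.92-fold. With all mice and quantile normalization this was above the 1.35 of Krt7, but Krt7 had the larger change with a common median (1.11 against 0.68), without normalization (1.58 against 1.15), without Nas497 (1.74 against 1.34), without Nas484 and Nas497 (1.91 against 1.28), with array weights (1.48 against 1.34) and with adjustment for actin (1.72 against 0.96). The deposited intensities were 549.5, 368 and 281 in Rac1-/- and 169, 218 and 141 in WT glands and did not overlap either. It lay between 1.34 and 1.90 without any 1 mouse, and was 0.68, with overlapping groups, with arrays scaled to a common median and 0.96 with adjustment for actin.

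Cldn3, a barrier-forming claudin of alveolar cells, had 10.18, 10.78 and 9.73 in Rac1-/- glands and 9.12, 9.18 and 9.60 in WT glands on its brightest probe set, again with no overlap. The log2 change was 0.93 (SE 0.47, interval -0.14 to 2.00, limma adjusted p = 0.946), but -0.11 with arrays scaled to a common median and 0.28 with adjustment for actin. Its deposited intensities, 1395, 861 and 670.4 in Rac1-/- and 758, 744 and 672 in WT glands, overlapped. On the other 3 probe sets of Cldn3 the groups overlapped, with 0.43 (SE 0.56), 0.27 (SE 0.55) and, on the dimmest, -0.74 (SE 0.74). On each of them Nas518 was the lowest of the 6 mice and lay below all WT mice, and the mean of the 4 probe sets gave 0.22. The separation seen for Cldn3 thus rests on the choice of probe set. The probe sets that gave 0.43 and 0.27 are of the kind that can cross-hybridize with related sequences, while the brightest and the dimmest are not. Cldn4 has only 1 probe set. Cldn4 and Cldn3 are next to each other on chromosome 5, with 39279 bases and 0 protein-coding genes between them (GRCm38.p6).

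Cldn7, a claudin also found along the basolateral membrane, had 8.79, 7.74 and 7.35 in Rac1-/- glands and 7.96, 8.66 and 7.16 in WT glands. The values of the groups interleaved, and the log2 change was 0.035 (SE 0.58, interval -1.30 to 1.37). It was -0.36 without Nas484, -0.38 without Nas496, 0.35 without Nas518 and 0.38 without Nas483, -0.70 with arrays scaled to a common median and 0.65 with adjustment for the interquartile range. Ocln, occludin, a membrane protein of tight junction strands, had 6.45, 5.66 and 6.03 in Rac1-/- glands and 6.04, 6.18 and 5.93 in WT glands, a log2 change of 0.0010 (SE 0.44, interval -1.0 to 1.0). It ran from -0.19 without Nas496 to 0.21 without Nas497, and was -0.0064 without Nas478 and -0.059 without Nas484. The deposited intensities of Ocln were 82.3, 75.4 and 74.8 in Rac1-/- and 44.2, 55.9 and 70.3 in WT glands and did not overlap, and without normalization between arrays the log2 change was 0.47, where the median of all genes was 0.35. A second probe set of Ocln gave -0.22 (SE 0.64), and its probe sets are among the 3 dimmest of the 17, at the 56.0th and 39.5th percentile of brightness over the array.

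**Figure D2:**
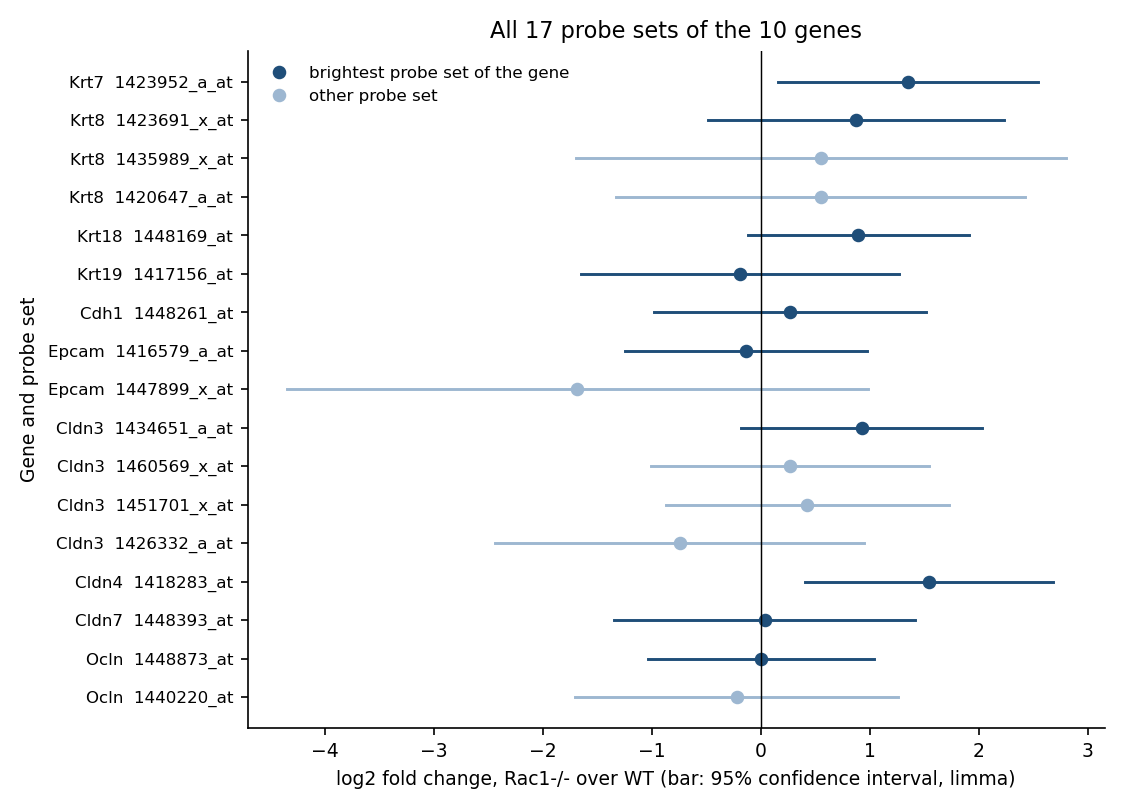
Log2 change, Rac1-/- over WT, (x axis) for all 17 probe sets of the 10 genes (rows), with 95% confidence intervals from limma (bars, n = 3 mice per group); dark points are the brightest probe set of each gene and light points the others. The intervals of Krt7 and Cldn4 lie right of 0 before adjustment, all others include 0, and the 4 probe sets of Cldn3 run from -0.74 to 0.93; with arrays scaled to a common median Krt8, Krt18, Cdh1, Cldn3 and Cldn7 turned below 0.

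Other claudins and tight junction genes were read from a list of 26, of which 25 were measured. Of these, 11 averaged higher in Rac1-/- glands and 14 lower (median log2 change -0.059, or -0.48 with a common median and 0.22 and 0.37 with adjustment for the interquartile range or actin), and none passed the test, while 1 higher and 1 lower gene had an unadjusted p under 0.05. Cldn1, a claudin of many epithelia including skin, had 7.07, 6.73 and 7.51 in Rac1-/- glands and 5.34, 3.99 and 5.48 in WT glands. Its groups stood apart, with a log2 change of 2.17 (SE 0.54, limma adjusted p = 0.946) that was between 1.6 and 2.56 without any 1 mouse and 2.52 with arrays scaled to a common median. Cldn8 differed the other way with 7.77, 4.30 and 8.08 in Rac1-/- glands and 9.47, 9.41 and 8.07 in WT glands, a log2 change of -2.27 (SE 0.98) that was -1.11 without Nas497. The remaining claudins on the list, Cldn2, Cldn12, Cldn15 and Cldn23, ranged from -0.48 to 0.34 with overlapping groups. Prkci, the atypical protein kinase C of the polarity complex, had 0.76 (SE 0.45), or -0.045 with arrays scaled to a common median, and the cytoplasmic junction protein Cgn, cingulin, had -0.70 (SE 0.47), and the groups of both stood apart. The scaffold Tjp1, or ZO-1, had -0.068 (SE 0.85). Of 9 desmosome genes, 5 had a higher and 4 a lower mean (median 0.043, or -0.57 with a common median), none had an unadjusted p under 0.05, and Ppl, periplakin, was the one whose groups stood apart, at -0.61 (SE 0.43). Dsc2, a desmosomal cadherin, had 0.77 (SE 0.70).

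The genes were also set within each array against the mean of Krt8 and Krt18. Every gene's log2 change is then lowered by the same amount, the mean change of Krt8 and Krt18, so their order stays as before. Whether these keratins follow the number of luminal cells was not tested. With arrays scaled to a common median their own changes were -0.071 and -0.23. The study's qRT-PCR probes also included Krt18, which the paper does not name as a reference. On this scale Cldn4 (0.66) and Krt7 (0.46) were above 0 and Cldn3 was at 0.042, while Cdh1 (-0.62), Cldn7 (-0.85), Ocln (-0.88), Epcam (-1.02) and Krt19 (-1.08) were below. None passed limma's test on it either, with 0 genes called over all genes and an unadjusted p under 0.05 for 16 higher and 2621 lower. The median of all genes was itself -0.82 on this scale, since the keratins that define it had a higher mean in Rac1-/- glands, and against that shift Cdh1 lay above, Cldn7 and Ocln close by, and Epcam and Krt19 below. The groups stood apart on it for Cldn4, higher, as in 0.143% of all genes, and for Ocln, lower, as in 27.1% of all genes.

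Epithelial genes of other kinds did not share one direction. Of 12 markers of luminal secretory cells, 12 had a lower mean in Rac1-/- glands (median log2 change -1.43), and 0 passed the test. An unadjusted limma p under 0.05 was reached by 7, all lower, against 1.82% of all genes. Glycam1, a milk mucin, had -3.62 (SE 0.50, limma adjusted p = 0.575), Wap, the whey protein whose promoter drives the Cre, had -2.77 (SE 0.45), and Elf5, the transcription factor of alveolar differentiation, had -1.45 (SE 0.47). Lalba, the regulatory subunit of lactose synthase, had -2.07 (SE 0.52), and Xdh, needed for milk fat secretion, had -1.98 (SE 0.53). The paper itself lists Wap, Lalba, Xdh and Elf5, among others of these 12, as lower in Rac1-/- glands. Those lists accompany its figure on the second pregnancy and lactation and state no stage, so they need not be of involution day 2. In 7 of the 12 each Rac1-/- mouse lay below each WT mouse, which held for 4.20% of all genes. The log2 of the summed level of the 12 genes ran from 16.3 to 17.3 in Rac1-/- glands and from 18 to 18.1 in WT glands. The same RNA samples thus held lower levels of secretory genes beside the values of Krt7, Krt18, Cldn3 and Cldn4 given above, and the secretory list kept a median below 0 under every scaling while the keratin and junction genes did not keep theirs above it. Of 15 epithelial surface and trafficking genes measured, 10 had a lower mean (median -0.49, or -1.19 with a common median and -0.23 with adjustment for the interquartile range). Muc1, the apical membrane mucin, had -1.18 (SE 0.48) and Tmprss2, an apical serine protease, had 1.53 (SE 0.46), or 0.60 with a common median, and the groups of both stood apart in these opposite directions.

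**Figure D3:**
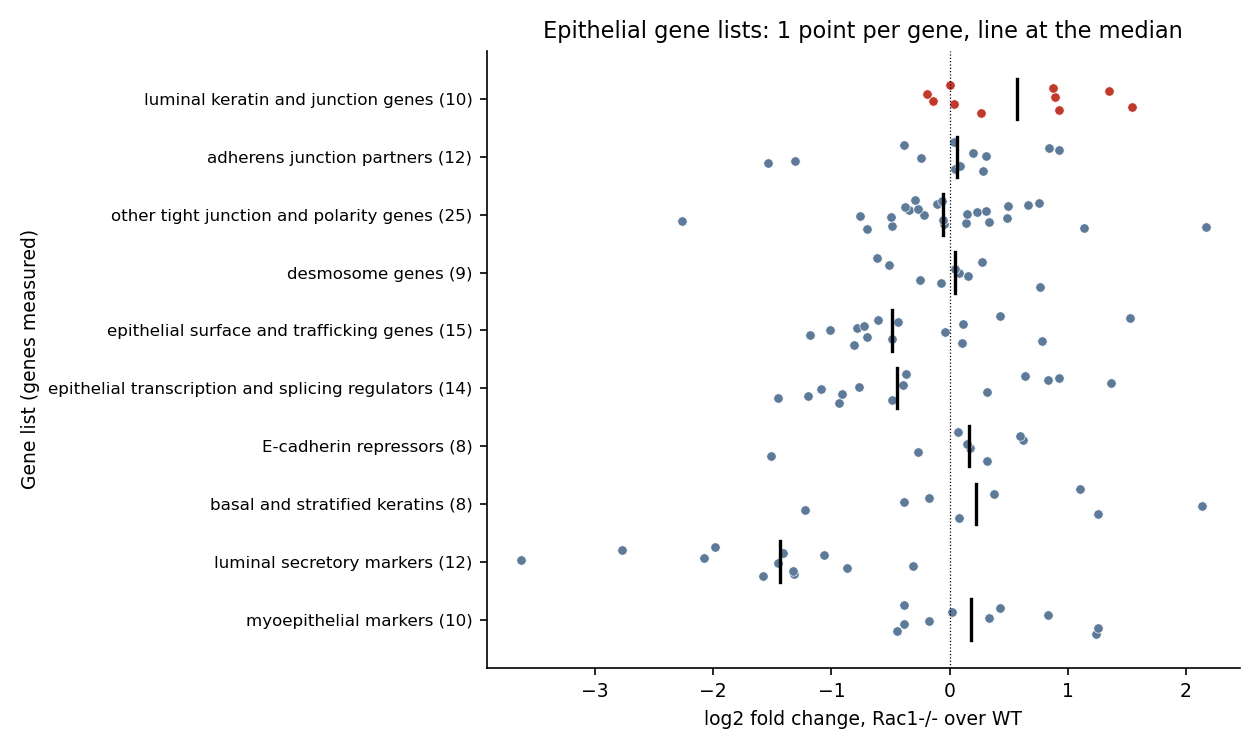
Log2 change, Rac1-/- over WT, (x axis) for the genes of 10 lists (rows, with the number measured), 1 point per gene and a line at each list's median (n = 3 mice per group). The 10 luminal keratin and junction genes, in red, have a median of 0.57 that turns to -0.17 with arrays scaled to a common median, and the 12 secretory markers lie left of 0 with a median of -1.43.

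Regulators of epithelial genes were looked at next, since several are known to act on the genes described here. Of 14 transcription and splicing regulators of epithelia, 9 averaged lower in Rac1-/- glands and 5 higher (median -0.44, with -0.96 under a common median but 0.080 and 0.31 with the interquartile range or the actin difference as covariates). None passed the test, and at an unadjusted p under 0.05 there were 3 lower (Elf5, Esrp1 and Gata3) and 1 higher (Grhl3). The groups stood apart, with all Rac1-/- values lower, for Elf5, Esrp1, Gata3, Esrp2 and Elf3, against 4.20% of all genes, and higher for Grhl3 and Klf5. Esrp1, which sets epithelial splice forms, had 6.62, 6.47 and 6.04 in Rac1-/- glands and 7.95, 7.76 and 7.0 in WT glands, a log2 change of -1.20 (SE 0.47), and its paralogue Esrp2 had -0.91 (SE 0.44). Gata3, a factor of luminal identity, had -1.09 (SE 0.47). The paper excepts Gata3 from the factors it calls reduced, in its passage on second-pregnancy glands. Grhl3, a grainyhead factor of barrier formation, had 6.03, 7.15 and 6.26 in Rac1-/- glands and 4.16, 5.5 and 5.68 in WT glands, a log2 change of 1.36 (SE 0.57), while its relatives Grhl1 and Grhl2 had -0.77 (SE 0.56) and -0.39 (SE 0.61). Of 8 repressors of E-cadherin, 6 had a higher and 2 a lower mean (median 0.16, and -0.064 with arrays scaled to a common median). Snai2, or Slug, had 7.23, 4.81 and 5.99 in Rac1-/- glands and 7.17, 8.09 and 7.30 in WT glands, a log2 change of -1.51 (SE 0.66) with groups that overlapped, and Twist2 had 0.62 (SE 0.47).

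Promoters are shown for the genes whose groups stood apart, because Snail and Zeb factors bind the E-box CAGGTG and grainyhead factors bind AACCGGTT. The 250 bases before the start site are given 5′ to 3′ in the direction of the gene, from RefSeq's GRCm38.p6, with the E-box in capitals on whichever strand it lies:
Krt7, chr15:101412153-101412402, plus strand: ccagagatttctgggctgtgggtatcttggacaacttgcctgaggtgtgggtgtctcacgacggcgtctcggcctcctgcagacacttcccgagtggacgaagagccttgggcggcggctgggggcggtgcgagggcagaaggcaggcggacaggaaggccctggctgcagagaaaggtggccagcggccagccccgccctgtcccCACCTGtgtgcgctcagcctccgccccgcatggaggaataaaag
Krt18, chr15:102027966-102028215, plus strand: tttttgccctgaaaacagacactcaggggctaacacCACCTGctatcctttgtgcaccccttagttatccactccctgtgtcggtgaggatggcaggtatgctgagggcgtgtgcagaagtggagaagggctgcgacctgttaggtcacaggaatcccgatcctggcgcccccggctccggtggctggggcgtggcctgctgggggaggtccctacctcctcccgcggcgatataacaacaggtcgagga
Cldn4, chr5:134946935-134947184, minus strand: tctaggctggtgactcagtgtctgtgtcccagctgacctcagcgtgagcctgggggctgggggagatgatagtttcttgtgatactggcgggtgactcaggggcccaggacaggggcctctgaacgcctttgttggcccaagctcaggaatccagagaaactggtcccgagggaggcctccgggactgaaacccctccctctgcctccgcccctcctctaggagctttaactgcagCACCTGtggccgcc
Cldn3, chr5:134985964-134986213, plus strand: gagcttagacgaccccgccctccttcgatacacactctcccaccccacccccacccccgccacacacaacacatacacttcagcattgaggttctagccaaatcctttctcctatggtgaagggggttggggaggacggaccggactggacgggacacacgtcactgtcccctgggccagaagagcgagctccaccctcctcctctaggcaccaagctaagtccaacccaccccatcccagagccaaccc
Krt7, Krt18 and Cldn4 each hold 1 E-box, which reads CACCTG in the direction of the gene, and Cldn3 holds 0. Promoters were found for 8 of the 10 genes, and those not matched were Krt19 and Cdh1. An E-box was in 7 of their 10 windows, against 17.2% of 32851 windows of the same length over all genes, and AACCGGTT was in 0 of the 10 windows, against 0.116%. Cldn7 and Ocln gave more than 1 window each, and counted by gene an E-box was found for 7 of the 8. The share over all genes was computed by window only, so it is no background for this count by gene. Windows with an E-box belonged to genes whose groups stood apart, to Krt8, whose groups overlapped, and to Epcam, Cldn7 and Ocln, whose means nearly met after quantile normalization. Whether the match bears on the differences was not tested. A match in letters is a description of the sequence only.

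By mouse, the 10 genes did not move as a block. Nas496 was above the gene's mean over all mice in 8 of the 10 genes, Nas497 in 6 and Nas518 in 5 among the Rac1-/- mice, against 2 in Nas478, 4 in Nas483 and 1 in Nas484 among the WT mice. Nas497 held the highest value of the 6 mice for 4 genes (Krt8, Krt18, Cldn3 and Cldn4) and the lowest for 2 (Epcam and Ocln), and Nas484 held the lowest for 5 genes and the highest for Krt19. Without both of these mice the 4 genes named above still stood apart, though with 2 mice in each group this held for 21.8% of all genes, and the median of the 10 genes was 0.38. The genes outside the 10 whose values over the 6 arrays lay closest to the mean pattern of the 10, among 9088 genes of at least median brightness, were Pbxip1, Lzts2, Chtop, Bin3, Emilin2 and Ogfod3, with Pearson correlations from 0.96 to 0.98 that are given as a description of 6 arrays. Their own log2 changes ran from 0.20 for Ogfod3 to 0.81 for Emilin2.

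Markers of other cell types were read beside these values. Of 12 macrophage markers, 11 had a higher mean in Rac1-/- glands (median log2 change 0.66, and -0.14 with arrays scaled to a common median), and the log2 of their summed level ran from 11.9 to 13.1 in Rac1-/- and from 11.3 to 12.3 in WT glands. For 7 neutrophil markers measured, 6 had a higher mean, and the range was 9.31 to 9.64 in Rac1-/- and 8.69 to 9.06 in WT glands. Fibroblast markers ran from 13.1 to 14.5 in Rac1-/- and from 13.7 to 14.3 in WT glands, adipocyte markers from 13.2 to 14.2 and from 13.1 to 14.2, endothelial markers from 9.72 to 10.3 and from 9.70 to 11.1, lymphocyte markers from 9.93 to 11.7 and from 9.76 to 11.8, and skeletal muscle markers from 9.71 to 11.3 and from 9.61 to 11.1. Of 6 markers of hormone-sensing luminal cells measured, 5 had a higher mean (median 0.29), with 8.94 to 9.32 in Rac1-/- and 8.71 to 9.39 in WT glands. Named by the same rule, the neutrophil genes Clec4d (2.20, SE 0.57) and Fpr2 (1.63, SE 0.45), the macrophage gene C1qa (0.63, SE 0.44), the lymphocyte gene Cd3g (0.53, SE 0.42) and the fibroblast gene Fn1 (0.99, SE 0.42) had groups that stood apart, higher in Rac1-/- glands, as in 5.41% of all genes. The endothelial gene Tie1 (-0.59, SE 0.43) stood apart lower, as in 4.20% of all genes. With a common median C1qa was -0.20. The groups overlapped for Ctss (1.28, SE 0.72) and Lyz2 (0.82, SE 0.47) of macrophages, Cd8a (0.86, SE 0.53) and Ms4a1 (0.86, SE 0.59) of lymphocytes, Cdh5 (-0.50, SE 0.71) of endothelium, Pdgfrb (-0.63, SE 1.03) of fibroblasts, Pparg (-0.81, SE 0.54) and Retn (0.66, SE 0.47) of fat, Actn3 (0.68, SE 0.54) and Acta1 (-1.11, SE 1.04) of muscle, and Cited1 (0.89, SE 0.74) and Pgr (0.52, SE 0.57) of hormone-sensing cells, with Lyz2 at -0.29 and Retn at -0.38 with a common median. None of the values of these lists was at the floor (0 values). The part of these cells in the values of the 10 genes was not tested.

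**Figure D4:**
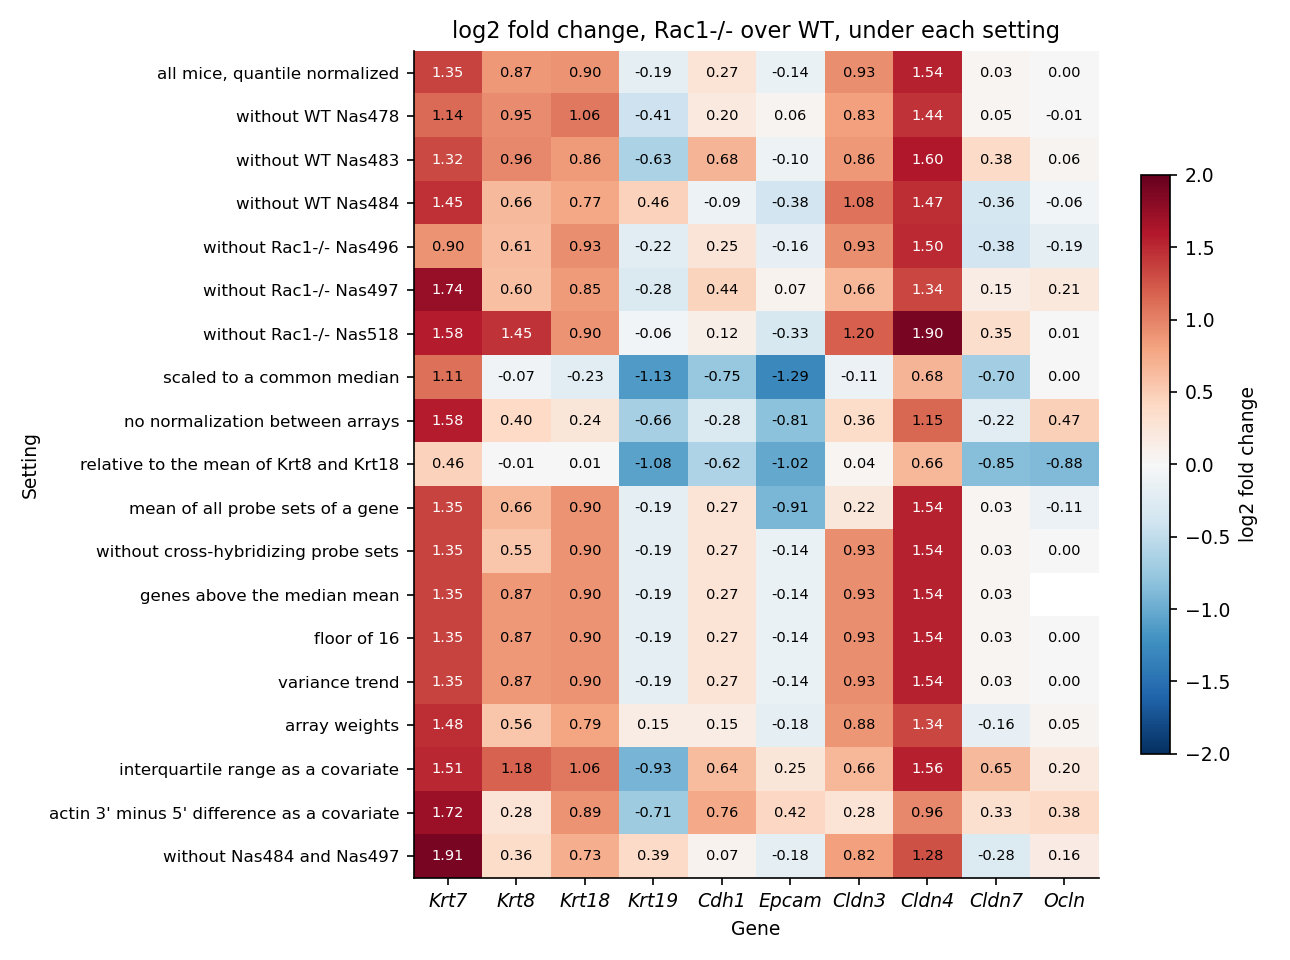
Log2 change, Rac1-/- over WT, of each of the 10 genes (columns) with all mice and under 18 other settings (rows), in red where higher and in blue where lower in Rac1-/- glands; Ocln has no value where only genes above the median mean were kept. Krt7 and Cldn4 are above 0 in every row, whereas Krt8, Krt18, Cldn3, Cdh1 and Cldn7 turn below 0 with arrays scaled to a common median. Rows that change only the probe sets, the filter, the floor or the variance model repeat the main values of Krt7 and Cldn4.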

How the data were processed

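RNA of inguinal mammary gland 4 from 3 Rac1-/- and 3 WT mice, separate animals grouped by the genotype in the labels, was amplified with the Affymetrix Sensation kit and hybridized to mouse 430 2.0 arrays. The paper describes this kit as meant for small amounts of RNA of low quality. The authors deposited 1 linear intensity per probe set; how probes were summarized and arrays normalized is information not given in the sources used here. After trimming 2% of probe sets at either end every array averages 100, so arrays were scaled one by one. No pair of arrays held identical values (0 of 15 pairs).

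Quantile normalization (limma 3.58.1, R 4.3.3) was followed by a floor of 1 and the log2. Of 45101 probe sets, 34958 name 1 symbol, 932 several and 9211 none, and those with 1 were used. Each gene took its probe set with the highest mean, and lmFit, eBayes and Benjamini-Hochberg adjustment ran over 18194 genes (threshold 0.05). Estimates for further probe sets come from the same model over all 34958. Precision is limited by how few arrays there are: with 3 mice against 3, the smallest two-sided p an exact permutation could give is 0.1. On simulated data made from these 18194 genes' means and spreads, limma recovered 25 of 50 genes simulated with a log2 change of 4, 11 of 50 with 3, 0 of 50 with 2 and 0 of 50 with 1, and made 2 false calls. The simulated noise was independent between genes and took each observed spread as the true one. Differences shared across an array are not in it, so these counts do not measure the power of the real arrays.

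The members and lists were chosen with earlier results of these data known. From each list the 2 genes with the smallest p, and further genes whose groups stood apart, up to 5, were to be named; other genes named were chosen after their values were seen. Alternatives left out each mouse or 2 mice, scaled arrays to a common median, to Krt8 and Krt18 or not at all, and changed the probe sets, the filter, the floor, the variance model, the array weights or a quality covariate. The actin covariate did not overlap between the groups, so its adjustment cannot be separated from genotype. Promoters are from RefSeq tables.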

Additional observations from a re-analysis of the deposited data

How the results depend on the processing

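The count of genes past limma's threshold was 0 of all genes and 0 of the 10 luminal keratin and junction genes under all 19 alternatives, as with the main settings. For the 10 genes the median log2 change, 0.57, ran from 0.43 to 0.77 when any 1 mouse was left out (0.77 without the WT mouse Nas483). It was -0.17 with arrays scaled to a common median, 0.30 without normalization between arrays and -0.31 relative to the mean of Krt8 and Krt18. The median of all genes was -0.12 with a common median and 0.35 without normalization, each time above that of the 10 genes. For the 10 genes it was 0.24 with each gene's probe sets averaged, 0.27 over all 17 probe sets and 0.87 over the 9 genes above the median mean. With array weights it was 0.36, and without Nas484 and Nas497 it was 0.38. The median of the 10 genes stayed within the spread between mice under the other settings. Over all genes, 405 had a higher and 332 a lower mean at an unadjusted p under 0.05, against 401 and 548 with a common median, 648 and 178 without normalization and 16 and 2621 relative to Krt8 and Krt18. The number of genes whose groups stood apart, 4, ran from 4 to 5 without any 1 mouse (Cdh1 joined without Nas483 and Krt8 without Nas518), while the share of all genes apart and higher, 5.41%, was then 7.87% to 17%. It was 1 with a common median (4.5% of all genes higher), 3 without normalization (Krt7, Cldn4 and Ocln; 6.82%), 3 with probe sets averaged (Krt7, Krt18 and Cldn4; 4.83%) and 2 relative to Krt8 and Krt18 (Cldn4 higher, 0.143%, and Ocln lower, 27.1%).

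Signs of single genes turned as follows. With a common median Krt8 was -0.071, Krt18 -0.23, Cdh1 -0.75, Cldn3 -0.11 and Cldn7 -0.70. Without normalization Cdh1 was -0.28 and Cldn7 -0.22. Relative to Krt8 and Krt18 all genes are lowered by one amount (the median of all genes was -0.82), which by construction puts Krt8, part of its own reference, at -0.011, Cdh1 at -0.62, Cldn7 at -0.85 and Ocln at -0.88, and these say nothing of single genes. Ocln was -0.11 with the mean of its probe sets. With array weights Krt19 was 0.15 and Cldn7 -0.16, and without Nas484 and Nas497 they were 0.39 and -0.28. Epcam was 0.25 with adjustment for the interquartile range and 0.42 for actin. Without any 1 mouse, Epcam ran from -0.38 to 0.070 (0.060 without Nas478), Ocln from -0.19 to 0.21 (-0.0064 without Nas478 and -0.059 without Nas484), Krt19 from -0.63 to 0.46, Cdh1 from -0.094 to 0.68 and Cldn7 from -0.38 to 0.38 (-0.36 without Nas484). The cause was not tested. No paired analysis was run, because the labels do not say which mice shared a litter, though the paper calls the WT mice littermates. The deposited table holds no detection calls, so which probe sets were above background is not known, and the dim probe sets of Ocln are the least certain.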
